A study of Mus musculus with 24 samples.

Results

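The ERK feedback genes described here are 10 genes of mouse leukemia cells: the dual-specificity phosphatases Dusp1, Dusp2, Dusp4, Dusp5 and Dusp6, the Sprouty and Spred genes Spry1, Spry2, Spred1 and Spred2, and the transcription factor gene Etv5. They were chosen by name, and all 10 are listed in each of the 4 deposited tables, of 24421, 24421, 24557 and 24340 entries. The data are RNA-seq of 24 libraries in 8 groups of 3, from cultured C57BL/6 bone marrow leukemia cells kept in medium with SCF, IL3 and IL6. In 3 models the fusion gene is inducible, and the groups are iCALM_AF10, iMLL_AF10 and iMLL_AF9 cells given either DMSO, the vehicle, or doxycycline (DOX), all with the genotype label wild type. In the 4th experiment, CALM_AF10 cells with the genotype Jak1 floxed were compared with CALM_AF10 cells with the genotype Jak1 deleted, called null, in which Cre-ER had been activated by 4-OHT (4-hydroxytamoxifen). The columns of the floxed group are headed DMSO. Effects of 4-OHT or of active Cre-ER therefore cannot be told apart from those of the deletion, and "after Jak1 deletion" below covers all of these. CALM-AF10 joins the endocytosis protein CALM (Picalm) to AF10 (Mllt10), and the MLL fusions join the histone methyltransferase MLL (Kmt2a) to AF10 or to AF9 (Mllt3). The study asked which genes depend on these fusions and which on the cytokine receptor kinase JAK1.

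Cytokine and growth factor receptors activate RAS, which switches on the kinase cascade RAF, MEK and ERK, and active ERK turns on genes that in turn restrain the cascade. Dual-specificity phosphatases remove the activating phosphates from ERK and, for some members, from the related kinases JNK and p38. Sprouty and Spred proteins act further up, between receptor, RAS and RAF, and the PEA3 factors Etv1, Etv4 and Etv5 are transcribed in response to ERK. The levels of these transcripts are widely used as a readout of ERK output, and SCF and IL3, both in the medium, signal through this cascade.

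The labels do not say whether a group's libraries are separate cultures, so the p-values rest on a spread between libraries that may be technical. The CALM-AF10 libraries held 12130633 to 40187404 counts and the Jak1 libraries 11743388 to 13764632. In CALM-AF10, off replicate 3 was the shallowest library and stood apart: the chi-square per degree of freedom over all genes was 11.18 and 10.38 between it and the other off libraries, against 3.672 to 5.915 for the other pairs of replicates. For MLL-AF10, deposited as log2 values, and MLL-AF9, deposited as FPKM (fragments scaled by transcript length and library depth), the depth is unknown. All 10 myeloid leukemia markers, Ptprc, Mpo and Kit among them, were detected in every table. Cd3e and Cd8a of T cells and Ms4a1 and Pax5 of B cells were at 0 or at the lowest listed value in the count and FPKM tables. Other lymphoid markers were above it. These were 6 of 8 B cell and 5 of 9 T and NK cell markers in CALM-AF10. They were 5 of 8 and 4 of 9 in the Jak1 libraries, and 4 of 8 and 1 of 9 in MLL-AF9. The columns of the CALM-AF10 table are named on and off, and no source used here ties these names to DMSO and DOX. That comparison is therefore off against on. Picalm fell by 0.78 and Mllt10 by 0.48 on the log2 scale in the off columns. Kmt2a was lower, not higher, with DOX, by 0.59 in MLL-AF10 and by 1.16 in MLL-AF9 cells. Mllt10 was lower with DOX by 0.34 in MLL-AF10, and Mllt3 overlapped between the groups in MLL-AF9. Reads of these loci can come from the normal gene or from the fusion, and whether DOX lowered the fusion itself was not tested. DOX-treated cells without a fusion were not analysed here. In bulk RNA, fewer cells of a type and less RNA per cell cannot be told apart.

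RefSeq gives a promoter entry for 9 of the 10 genes. Dusp4, which fell by 1.11 on the log2 scale after Jak1 deletion, has none and was not searched. The upstream 250 bases of 3 genes are shown because of their changes. These are Dusp1 and Dusp5, with the largest rises in MLL-AF9 cells, and Etv5 (the first of its listed starts), with the largest fall after Jak1 deletion. They lie, in build GRCm38.p6, at chr17:26508473-26508722 (minus strand), chr19:53528895-53529144 (plus strand) and chr16:22439571-22439820 (minus strand). Capitals mark a cyclic AMP response element (TGACGTCA) in Dusp1 and a pair of adjoining CArG boxes, the sequence that serum response factor binds, in Dusp5.
Dusp1: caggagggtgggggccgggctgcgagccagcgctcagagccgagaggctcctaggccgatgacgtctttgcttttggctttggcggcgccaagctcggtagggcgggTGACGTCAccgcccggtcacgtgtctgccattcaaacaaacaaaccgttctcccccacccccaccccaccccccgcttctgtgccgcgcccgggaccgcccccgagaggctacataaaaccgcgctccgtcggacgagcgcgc
Dusp5: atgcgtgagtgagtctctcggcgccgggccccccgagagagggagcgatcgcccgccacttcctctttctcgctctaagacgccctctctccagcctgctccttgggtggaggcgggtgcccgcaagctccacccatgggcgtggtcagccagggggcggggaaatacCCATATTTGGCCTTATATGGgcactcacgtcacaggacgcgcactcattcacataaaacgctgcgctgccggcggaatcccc
Etv5: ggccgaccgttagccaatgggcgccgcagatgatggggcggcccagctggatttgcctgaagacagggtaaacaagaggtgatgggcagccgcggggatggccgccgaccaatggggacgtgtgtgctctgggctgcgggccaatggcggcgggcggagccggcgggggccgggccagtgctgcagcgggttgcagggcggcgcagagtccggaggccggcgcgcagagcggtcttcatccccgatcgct
The letters were searched on both strands over the 250 bases before and the 50 bases after each start. TGACGTCA, which began 143 bases before the start of Dusp1, is held by 1.79% of the 32851 mouse promoter entries. A CArG box is held by 1.63% of them, and those of Dusp5 began 82 and 72 bases before its start. Among the entries of these genes, these were the only matches to either motif. The STAT motif TTCNNNGAA (8.30% of entries), the ETS motif CCGGAAG (8.86%), the AP-1 motif TGANTCA (7.81%), 1 fixed spelling of the CArG box (0.0639%) and TATAAA (13.6%) had no match in any of them. The GC box GGGCGG (35.7% of entries) matched in Dusp1, Dusp2, Dusp5, Spry1, Spred1, Spred2 and Etv5. The half-site TGACG (20.8%), which TGACGTCA contains on both strands, matched in Dusp1, Dusp2, Dusp5 and Spred2. The CArG box was searched after the Dusp5 sequence had been read, and a match or its lack is a description of these letters only.

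After Jak1 deletion most of the ERK feedback genes were lower, and Etv5 most of all. Of the 10 genes, 8 fell, 1 rose (Dusp2) and 1 (Dusp1) did not pass the test. In this comparison 55.7% of all 11607 genes tested passed, 28.3% lower and 27.4% higher, where passing means an adjusted p under 0.05 in edgeR's quasi-likelihood test with Benjamini-Hochberg adjustment over all genes. The median log2 fold change was -0.54 over the 10 genes and 0.01 over all genes tested. The groups did not overlap for 9 of the 10 genes, against 60.8% of all genes. Levels here are counts scaled by edgeR's TMM factors.

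**Figure D1:**
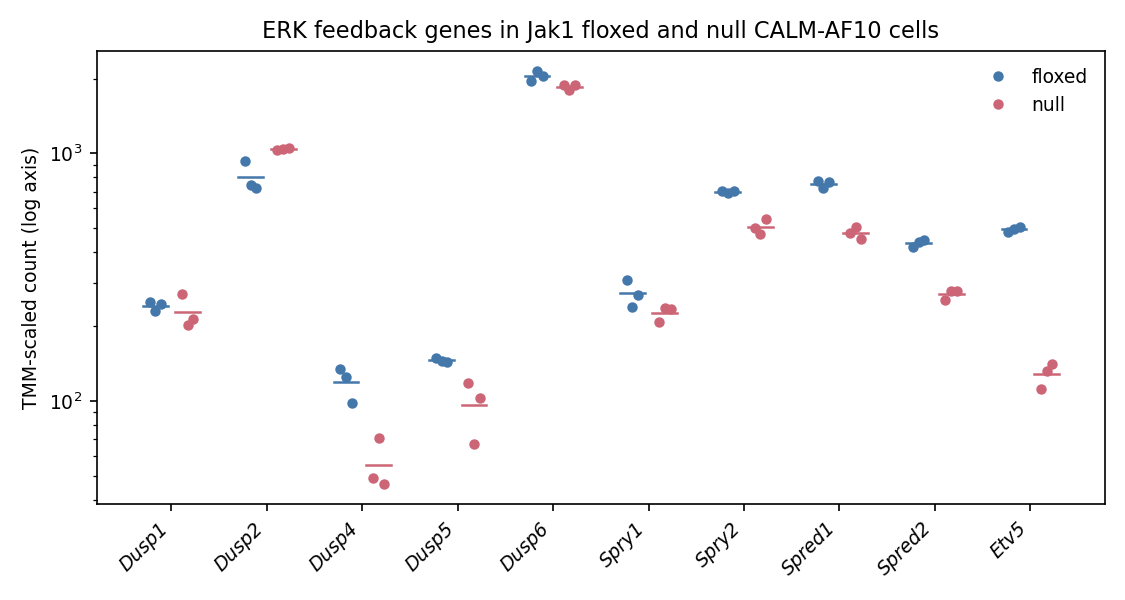
TMM-scaled counts (log axis) of the 10 ERK feedback genes in 3 floxed and 3 null CALM-AF10 libraries; points are libraries and bars are group means. Every null library lies below every floxed library for 8 genes and above them for Dusp2, and the widest gap is that of Etv5.

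Etv5 (mm9, as for every gene position here, chr16:22381382-22439792, minus strand), an ETS factor of the PEA3 group, had counts of 480.1, 496 and 503 in the floxed libraries and 112, 132 and 141 in the null libraries. The groups were far apart, with little spread within either. The level fell to 0.261 of the floxed level (log2 fold change -1.94 ± 0.08 SE, adjusted p = 1.05e-18, edgeR), and 1.83% of all genes tested fell as far or further. The related genes Etv4 and Etv1 fell too, Etv4 from 663 ± 12.6 to 193 ± 14.1 (SD, n = 3; log2 fold change -1.78) and Etv1 from 49.5 ± 1.23 to 18.8 ± 5.72 (-1.39).

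Dusp4 (chr8:35870351-35882948, plus strand), a nuclear phosphatase induced by ERK, had counts of 135, 125 and 98.6 in floxed and 49.0, 70.9 and 46.5 in null libraries. All null values lay below all floxed values, and the log2 fold change was -1.11 ± 0.16 (adjusted p = 6.11e-07, edgeR). Dusp5 (chr19:53603599-53616921, plus strand), a nuclear phosphatase that acts on ERK, had 149.7, 144 and 144 against 118, 67.0 and 103. It fell by 0.61 on the log2 scale (SE 0.14, adjusted p = 0.000380), with null library 2 the lowest. Dusp6 (chr10:98725865-98730122, plus strand), the cytoplasmic ERK phosphatase, changed least among those that fell. Its counts were 1949, 2139.7 and 2051 in floxed and 1881, 1792 and 1892 in null libraries, a log2 fold change of -0.14 ± 0.04 (adjusted p = 0.00319).

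Dusp2 (chr2:127161895-127164112, plus strand), a nuclear phosphatase of activated immune cells, was the one member that rose. It had counts of 929, 742.5 and 725 in floxed and 1033, 1043 and 1049.7 in null libraries, without overlap, and its log2 fold change was 0.39 ± 0.06 (adjusted p = 3.63e-06, edgeR). Dusp1 (chr17:26642535-26645464, minus strand), a stress-inducible phosphatase of p38, JNK and ERK, had 251, 230.4 and 246 against 270.5, 202 and 215. The groups overlapped, and the log2 fold change of -0.08 had a 95% interval from -0.27 to 0.11 (adjusted p = 0.477).

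The 4 inhibitors acting near RAS all fell. Spred2 (chr11:19824378-19924029, plus strand) had counts of 420.2, 438 and 447 in floxed and 255, 278 and 279 in null libraries (log2 fold change -0.68 ± 0.07, adjusted p = 6.34e-10, edgeR). Spred1 (chr2:116947110-117008015, plus strand), which brings the RAS inactivator neurofibromin to the membrane, had 773, 725 and 765 against 477, 504 and 452 (-0.66 ± 0.05, adjusted p = 5.46e-12). The null libraries held about the same share of the floxed level for both Spred genes, 0.622 for Spred2 and 0.634 for Spred1. Spry2 (chr14:106291166-106296036, minus strand), a receptor-induced inhibitor of RAS signalling, had 707, 689 and 702 against 501, 474 and 541 (-0.47 ± 0.05, adjusted p = 1.03e-08). Spry1 (chr3:37538869-37543520, plus strand), its close relative, had 308, 240.5 and 268 against 208, 238 and 234. Its groups barely separated, and its fall of 0.25 on the log2 scale (adjusted p = 0.0173) did not pass with DESeq2 (adjusted p = 0.0537), without floxed replicate 1 (0.160) or without null replicate 1 (0.0975).

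Other genes of the pathway were described by lists chosen with earlier results of these data known. Of 8 other dual-specificity phosphatases tested, 7 fell and none rose (median -0.81), among them Dusp16, a JNK and p38 phosphatase (161.6 ± 15.2 to 42.0 ± 4.71, log2 fold change -1.94), and Dusp3 (-0.84). All 4 tested genes of the other Sprouty family and PEA3 list fell, with Spry4 at -1.06 and Spred3 at -0.79. The RAS-ERK core, the relay proteins themselves, was mixed: 11 of 22 fell and 5 rose, with a median of -0.12. The MEK gene Map2k1 fell from 1869 ± 105 to 1188 ± 53.7 (-0.65, adjusted p = 1.63e-13, edgeR), while the RAS inactivator Rasa1 rose by 0.29. Of 20 immediate early genes, the first transcribed after a stimulus, 13 fell and 3 rose. Atf3 and Fosl1 fell by 2.07 each, whereas Fos rose by 1.88 from a low level of 19.6 ± 3.38 to 72.5 ± 7.89. Of 10 tested receptor genes upstream of the cascade 6 rose and 2 fell, with Flt3 at 2.72, Csf1r at 1.88, Csf3r at 1.65 and the IL6 receptor gene Il6ra at 1.26.

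**Figure D2:**
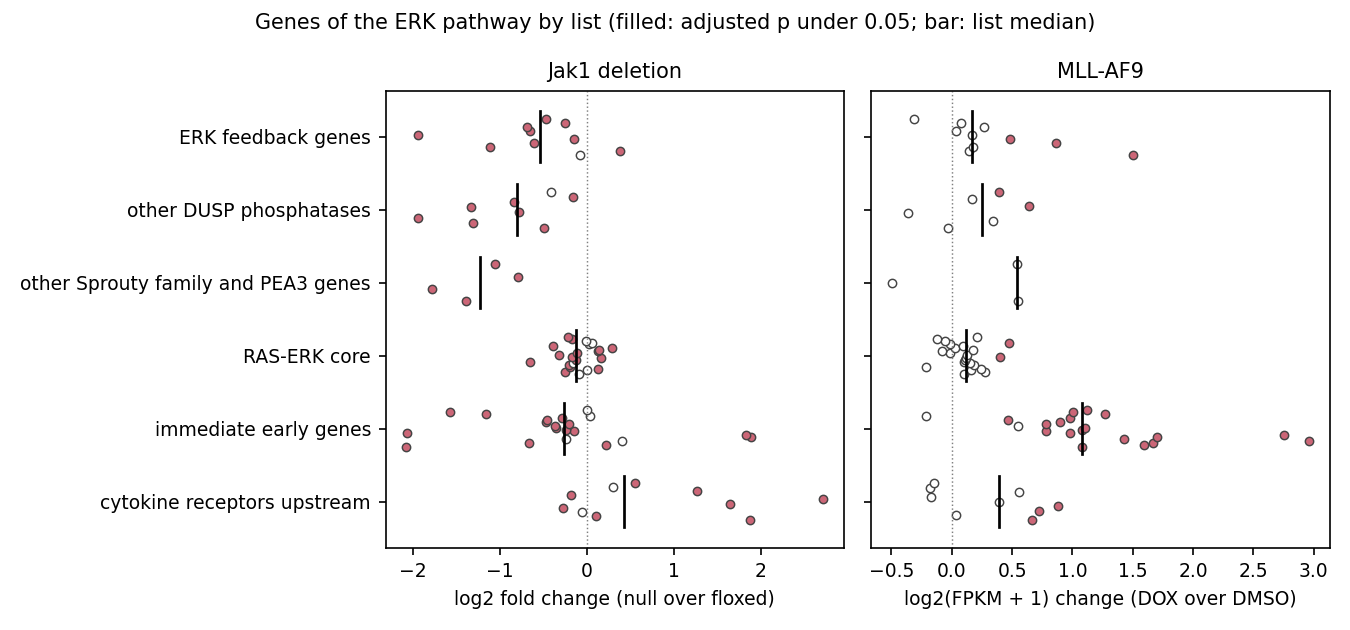
Log2 fold changes of single genes by list after Jak1 deletion (left) and in MLL-AF9 cells with DOX (right, on the log2(FPKM + 1) scale); filled points had an adjusted p under 0.05 and bars are list medians. Apart from Dusp2, phosphatase and PEA3 genes lie to the left of 0 after Jak1 deletion, and most immediate early genes lie to the right in MLL-AF9 cells.

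The Jak1 count itself was 2458 ± 19.3 in floxed and 1975 ± 85.3 in null libraries (log2 fold change -0.32, adjusted p = 2.00e-08, edgeR). No source used here gives the deleted exons, and the counts cover the gene as a whole, so this checks the labels only in part. Picalm, whose reads can come from the normal gene or from the fusion, also fell, by 0.51, and Mllt10 fell by 0.10 (adjusted p = 0.0135, edgeR). The summed count of 10 neutrophil markers was 46081 to 48363 in floxed and 37215 to 39342 in null libraries, with 4 markers higher and 5 lower. The summed count of 10 monocyte and macrophage markers ranged from 37104 to 40840 and from 37422 to 41767, but of the 8 tested 4 rose and 3 fell, with Csf1r at 1.88 and Cd14 at -1.46 on the log2 scale. The early B cell genes Igll1 and Vpreb1 rose by 2.86 and 2.60 on the log2 scale, while Ms4a1 and Pax5 were at 0. The part of these shifts in the result was not tested.

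In the CALM-AF10 model the ERK feedback genes were mostly a little lower in the off columns, and few passed the test. Of the 10 genes 2, Etv5 and Spred1, passed edgeR's test, both lower, against 5.24% of all 12366 genes tested, 3.11% lower and 2.13% higher. The log2 fold change was below 0 for 9 of the 10 genes, with a median of -0.20 against -0.0029 for all genes, and the groups did not overlap for 6 genes, against 30.0% of all genes.

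Etv5 had TMM-scaled counts of 740.5, 707 and 762 in the on columns and 611, 583 and 583 in the off columns. The off values sat close together below all on values (log2 fold change -0.31 ± 0.06, adjusted p = 0.0195, edgeR). Spred1 had 3202, 2853 and 2903 against 2577, 2427 and 2034 (-0.34 ± 0.08, adjusted p = 0.0459). Both calls were lost without on replicate 1, 2 or 3 or off replicate 2, with adjusted p from 0.0621 to 0.114 for Etv5 and from 0.104 to 0.149 for Spred1. Dusp4 had the largest difference, 292, 214 and 189 against 173, 149 and 102. Its log2 fold change of -0.64 ± 0.20 did not pass (adjusted p = 0.101) but did with DESeq2 (0.0231).

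Off replicate 3, which stood apart, had the lowest off value of Dusp4, Dusp6, Spry1, Spred1 and Spred2. Without it the median log2 fold change over the 10 genes was -0.24, and Etv5 (-0.30, adjusted p = 0.0200, edgeR) and Spred1 (-0.25, adjusted p = 0.0248) were again the 2 that passed, both lower, against 7.51% of 12564 genes, 4.00% lower and 3.52% higher. Dusp4 then stood at -0.51, Spry1 at -0.22, Spred2 at -0.12 and Dusp6 at -0.10, none of which passed.

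Dusp6, Spry1 and Spred2 did not overlap between the groups either and did not pass. Dusp6 had 1399.5, 1456 and 1395 against 1265, 1386 and 1178 (log2 fold change -0.14), Spry1 had 172, 164 and 161 against 141, 143 and 109 (-0.30), and Spred2 had 1337, 1261 and 1197 against 1189, 1131 and 1062 (-0.16). For Dusp1, Dusp2, Dusp5 and Spry2 the groups overlapped, with log2 fold changes from -0.21 to 0.06. Elsewhere in the pathway, Dusp3 fell by 0.36 and the ERK gene Mapk3 rose by 0.26, 1 of 7 other phosphatases and 1 of 23 core genes. None of 20 immediate early genes passed in edgeR, 4 had an unadjusted p under 0.05, and DESeq2 called 1. Neutrophil markers summed to 10752 to 12744 counts in the on columns and 15802 to 25405 in the off columns, and the part of this shift in the result was not tested.

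**Figure D3:**
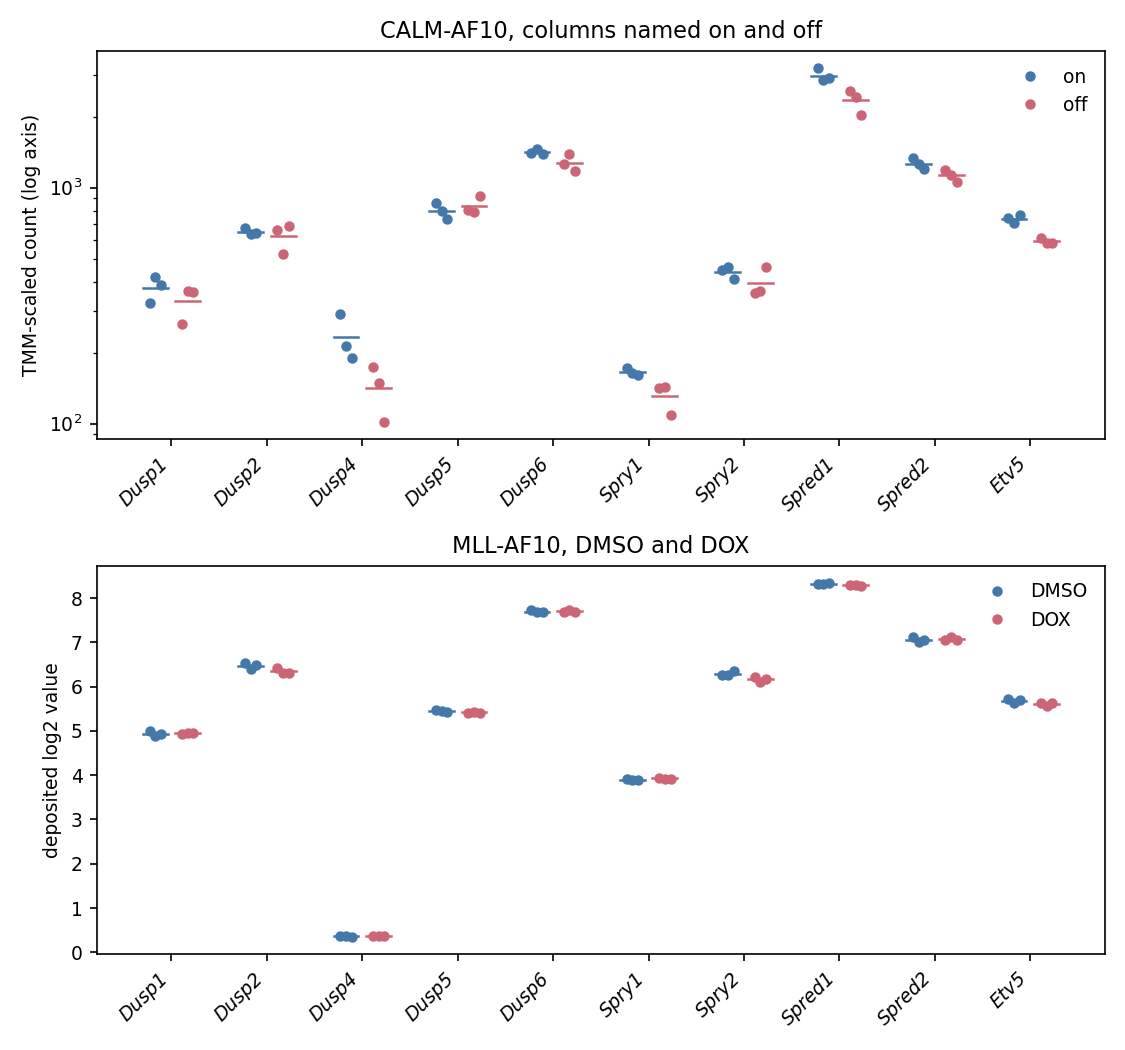
Levels of the 10 genes in 3 against 3 libraries of the CALM-AF10 model (top, TMM-scaled counts, log axis) and the MLL-AF10 model (bottom, deposited log2 values); points are libraries and bars are group means. Etv5, Spred1, Dusp4, Dusp6, Spry1 and Spred2 do not overlap between the groups in the top panel. In the bottom panel the groups lie nearly level, with Dusp4 near 0.36.

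In MLL-AF10 cells the differences with DOX were small. Of 9 genes tested, 1 (Spry2) fell, against 19.8% of all 10553 genes tested, 9.17% lower and 10.6% higher, by limma on the deposited log2 values. The median difference was -0.03 over the 9 genes and 0.00059 over all genes, and 4 did not overlap between groups, against 36.3% of all genes. Low values in this table lie close together, so its differences are probably shrunken towards 0. Spry2 had log2 values of 6.26, 6.26 and 6.36 with DMSO and 6.22, 6.11 and 6.16 with DOX. All DOX values were lower, by 0.13 ± 0.04 on average (adjusted p = 0.0259, limma), but the call was lost without DMSO replicate 3 (0.116), DOX replicate 2 (0.136) or DOX replicate 3 (0.0758).

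The replicate numbers were taken to pair these libraries, though no label says what they share. With the replicate as a block 3 genes fell: Spry2, Dusp2 (adjusted p = 0.00231, limma) and Etv5 (0.0348). With the block 29.4% of all genes tested passed, 13.8% lower and 15.6% higher. Dusp2 had 6.54, 6.40 and 6.48 with DMSO and 6.43, 6.31 and 6.30 with DOX. It was lower with DOX at each replicate number (difference -0.13, adjusted p = 0.0503 without the block, limma). Etv5 had 5.71, 5.64 and 5.69 against 5.62, 5.56 and 5.63, a difference of -0.08. Spred1 had a difference of -0.04 and Spry1 of 0.03, without overlap and without passing. Dusp1, Dusp5, Dusp6 and Spred2 overlapped, with differences between -0.03 and 0.01, and Dusp1 and Dusp6 took the opposite sign when each library was centred on its median. Dusp4 was too low to test, at 0.36 to 0.37 in all 6 libraries. The counts that follow are without the block, where 10.6% of all genes tested were higher and 9.17% lower. Among 15 immediate early genes 7 rose, Klf6 by 0.36, and among 23 core genes 5 rose and 1 fell, with Mapk3 at 0.23. None of 6 other phosphatases passed in limma, and 2 had an unadjusted p under 0.05. Of the 7 neutrophil markers tested 5 rose, and with the log2 values turned back to a linear scale the marker list summed to 2601 to 2995 with DMSO and 4612 to 6547 with DOX. Of 10 monocyte and macrophage markers 7 rose, with sums of 12581 to 14076 and 14757 to 15502. The part of these shifts in the result was not tested.

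In MLL-AF9 cells the phosphatase genes Dusp1, Dusp5 and Dusp6 rose with DOX. These were 3 of 10 genes tested, against 11.8% of all 10881 genes tested, 7.23% higher and 4.54% lower, by limma on log2(FPKM + 1), a scale that understates the change of low genes. The median log2 fold change was 0.17 over the 10 genes and -0.02 over all genes, and 4 genes did not overlap between groups, against 34.0% of all genes.

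**Figure D4:**
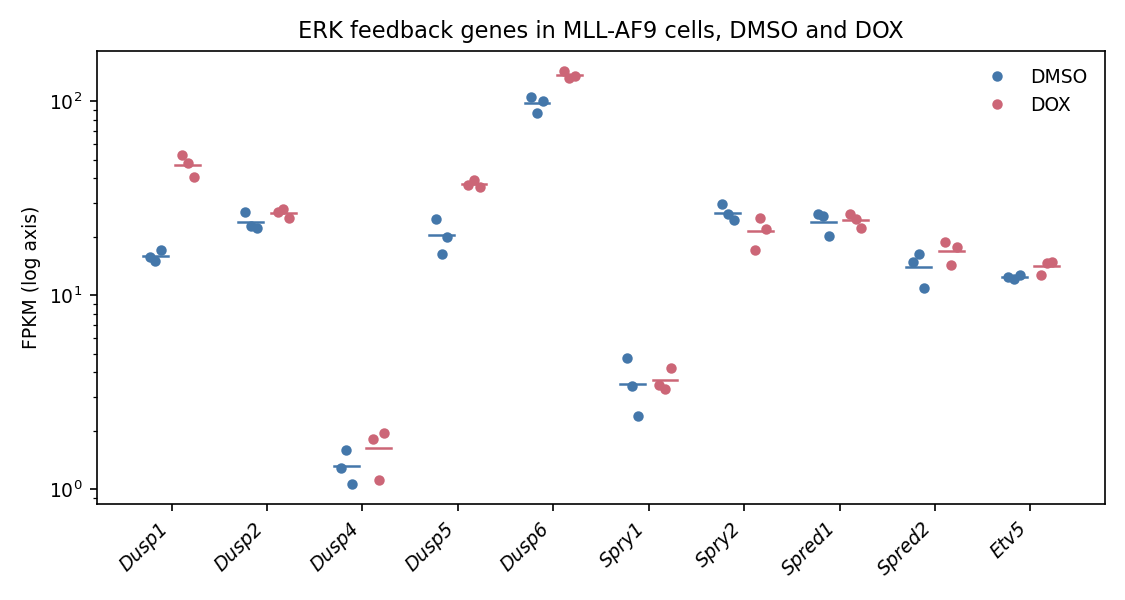
FPKM (log axis) of the 10 ERK feedback genes in 3 DMSO and 3 DOX libraries of MLL-AF9 cells; points are libraries and bars are group means. Dusp1, Dusp5 and Dusp6 separate, with the DOX libraries higher, as does Etv5 narrowly, and the Sprouty and Spred genes overlap.

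Dusp1 had FPKM of 15.7, 15.0 and 17.1 with DMSO and 52.8, 48.0 and 40.6 with DOX. Every DOX library was well above every DMSO library, and the mean rose from 15.9 ± 1.05 to 47.1 ± 6.12 (SD, n = 3; log2 fold change 1.50 ± 0.11 SE, adjusted p = 0.000438, limma). Of all genes tested, 1.09% rose as much or more. Dusp5 had 24.7, 16.3 and 20.0 against 36.9, 39.1 and 36.1, also without overlap (0.86 ± 0.14, adjusted p = 0.00976). Dusp6 had 105, 87.3 and 99.8 against 143, 132 and 135 (0.49 ± 0.09, adjusted p = 0.0133). The 3 calls held under every alternative run. The promoters of Dusp1 and Dusp5 were shown above because of these rises, and a link of their motifs to the rises was not tested. The promoter of Dusp6 matched none of the motifs searched.

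The members outside the phosphatases did not pass in MLL-AF9 cells. Spry2 had 29.5, 26.1 and 24.3 FPKM with DMSO and 17.2, 25.1 and 22.0 with DOX, overlapping, with a log2 fold change of -0.31 and a 95% interval from -0.66 to 0.03. Etv5 had 12.5, 12.1 and 12.6 against 12.7, 14.7 and 14.8, without overlap (0.17, adjusted p = 0.352). Spred2 (0.26), Spry1 (0.08) and Spred1 (0.03) overlapped, as did Dusp2 (0.15) and Dusp4 (0.18), the latter at 1.07 to 1.95 FPKM.

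Immediate early genes rose widely beside them: 18 of 20 were higher and none lower, with a median of 1.08. Fos rose from 33.3 ± 3.02 to 110.2 ± 3.65 FPKM, Egr1 from 107 ± 8.91 to 342 ± 28.2, Egr2 from 1.99 ± 0.33 to 22.2 ± 1.59 and Fosb from 1.71 ± 0.37 to 17.2 ± 0.86. The core pathway moved little, with 2 of 22 genes higher, Mapk3 by 0.40 and Rps6ka3 by 0.47. Of 6 other phosphatases 2 rose, Dusp22 by 0.64 and Dusp7 by 0.39. These 4 calls were lost under several alternatives. None of 3 other Sprouty family and PEA3 genes passed in limma, and 1 had an unadjusted p under 0.05. The p38 kinase gene Mapk13 rose from 2.76 ± 1.09 to 18.4 ± 1.54 FPKM. Neutrophil markers summed to 8496 to 10409 FPKM with DMSO and 33512 to 47587 with DOX, with 8 of 10 higher, and monocyte and macrophage markers to 1706 to 1872 and 2311 to 2589. The part of these shifts in the result was not tested.

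**Figure D5:**
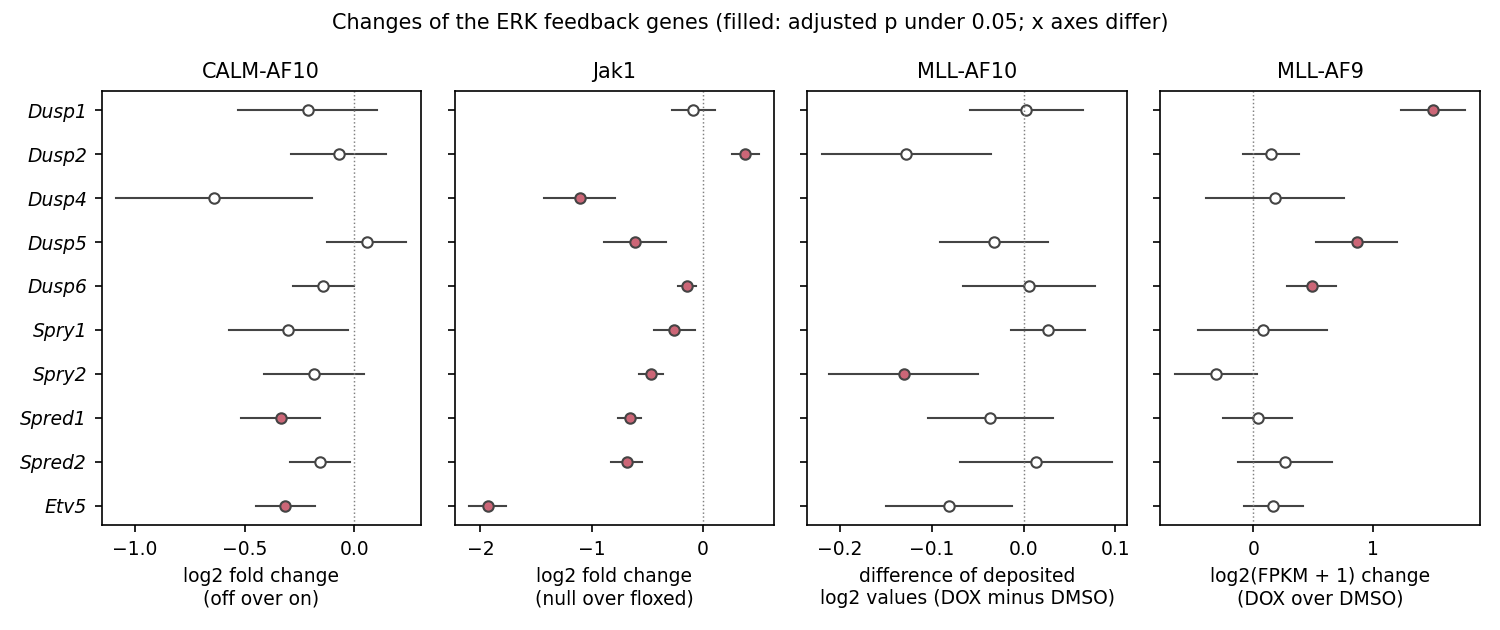
Change of each gene in the 4 comparisons with its 95% confidence interval; filled points had an adjusted p under 0.05, Dusp4 was not tested in MLL-AF10, and the x axes differ. Etv5 is farthest from 0 after Jak1 deletion and Dusp1 in MLL-AF9.

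Side by side and without the replicate block, no gene passed in more than 2 of the 4 comparisons. With the block in MLL-AF10, which assumes that the replicate numbers pair libraries, Etv5 passed in 3 (adjusted p = 0.0348 there, limma). Etv5 and Spred1 were lower both in the off columns of CALM-AF10 and after Jak1 deletion, and Spry2 both after Jak1 deletion and in MLL-AF10. Dusp5 and Dusp6 were lower after Jak1 deletion and higher in MLL-AF9 cells with DOX. The tables were normalized separately, so these differences between comparisons were not tested. The authors' deposited gene lists name Dusp4 and Spred1 among 359 genes headed Down in CA10_Off, that is lower with CALM-AF10 off. They name Dusp2 and Spry2 among 966 genes headed Down in MA10_Off. They name 0 of the 10 genes among 887 headed Down in MA9_Off, 142 common to the AF10 fusions and 25 common to all fusions. The tables of these models have 24421, 24557 and 24340 entries. Genes that rose cannot be in lists headed Down. Etv5, which passed here in CALM-AF10, is in none of the lists, whereas Dusp4, which did not pass there, is listed.

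Per kilobase of exon, Dusp6 was the highest of the 10 genes in both count tables. In the floxed libraries it stood at 732 ± 34.1 counts per kilobase (SD, n = 3), followed by Dusp2 at 399 ± 56.5 and Spry2 at 335 ± 4.50. Spry1, at 93.7 ± 11.7, did not differ beyond its spread from Spred2 at 94.2 ± 2.97 or Dusp1 at 89.9 ± 4.01. Dusp4 was lowest, at 43.6 ± 6.85. Etv5 moved from the 4th place, at 120.2 ± 2.89, to the 9th, at 31.3 ± 3.62, after Jak1 deletion. In the CALM-AF10 on columns Dusp6 stood at 507 ± 12.2 and Spred1 at 440.2 ± 27.8, and Spry1 was lowest at 57.0 ± 2.04. Dusp2 at 324 ± 10.7 and Dusp5 at 323 ± 25.4 lay within their spread of each other. Dusp6 was also the highest by FPKM in MLL-AF9 cells, at 97.5 ± 9.24 with DMSO. Over the 9706 genes tested in all 4 comparisons, Tpst1, Hbp1, Nuak1, Pdss2 and Sh3gl1 had the 4 log2 fold changes nearest to those of Dusp6, each scaled by the spread of all genes. For Tpst1 the distance was 0.187 and the values were -0.17, -0.13, -0.01 and 0.48, against -0.14, -0.14, 0.01 and 0.49 for Dusp6.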

How the data were processed

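Per gene, the authors deposited raw read counts for CALM-AF10 and for Jak1. The second table is named FPKM, but its values are whole numbers with different totals per library, and they were treated as counts. They deposited log2 values for MLL-AF10, made by a transformation that no source used here names, and FPKM for MLL-AF9. A further deposited table holds gene lists. Bowtie 0.12.2 and mm9 are named in the submitters' processing notes. The counter, its use of strand and the annotation are not given, so reads of overlapping genes on opposite strands may be mixed. The loci listed in the MLL-AF9 table do not match mm9 and were not used. RNA was polyA RNA, or total RNA for MLL-AF9, per the labels.

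Groups came from library titles and columns from their names. In the Jak1 table, columns headed DMSO stand for the floxed group and those headed Jak1_Del for the null group. Each fit used the 6 libraries of 1 table. Counts were filtered with filterByExpr, scaled by TMM and tested with edgeR 4.0.16 (R 4.3.3). Log2 values with a mean of at least 3.32 (log2 of 10) and FPKM with a mean of at least 1, as log2(FPKM + 1), went to limma 3.58.1 with eBayes and a trend. DESeq2 1.42.0 was an alternative. Benjamini-Hochberg adjustment ran over all genes tested. SE of limma and edgeR fits, SD over 3 libraries and 95% intervals are given. The tests were tested on simulated data. Replicates of the count tables differed by more than sampling noise, though by much less in the Jak1 libraries. The chi-square per degree of freedom was 1.675 to 2.466 there and 3.672 to 11.18 in CALM-AF10.

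The replicate numbers were taken to pair the MLL-AF10 libraries: deviations from the group means correlated at 0.397, 0.199 and 0.194 between same-numbered libraries. Libraries 2 and 3 also correlated across numbers, at 0.175 and 0.17, so these values do not settle how libraries 2 and 3 pair. In the other tables at least 1 pair was under 0.1.

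Named were all 10 genes, the fusion loci and Jak1, up to 4 called genes per list with the smallest adjusted p, and the 5 genes most like Dusp6. Some genes that the rule names are left out here. The members, lists and motifs were chosen with earlier results of these data known. Gene positions are from GENCODE in mm9, and exon length is the merged exons of each gene. Promoters are from RefSeq.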

Additional observations from a re-analysis of the deposited data

Results flagged for a closer look

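For 3 genes all libraries with DOX or in the off columns lay below all others in one model and above them in another. Dusp6 had a log2 fold change of -0.14 in CALM-AF10 (off against on) and 0.49 in MLL-AF9 (DOX against DMSO). Etv5 stood at -0.31 in CALM-AF10 and -0.081 in MLL-AF10, against 0.17 in MLL-AF9. Spry1 stood at -0.30 in CALM-AF10 and 0.027 in MLL-AF10. The difference between models was not tested, because the tables were normalized separately and hold different units. Groups of 3 libraries that do not overlap were common, at 30.0% of genes in CALM-AF10, 36.3% in MLL-AF10 and 34.0% in MLL-AF9. Of these values, those of Dusp6 in MLL-AF9 and of Etv5 in CALM-AF10 passed their tests, and that of Etv5 in MLL-AF10 passed with the replicate as a block (adjusted p = 0.0348, limma).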

How the results depend on the processing

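Of 428 values of single ERK feedback genes under the alternatives, 392 kept their direction and their side of the threshold, 14 lost a call and 7 gained one. The other 15 changed sign, each of a gene without a call, with log2 fold changes near 0. Leaving out 1 library at a time, the log2 fold change ran from -0.13 to 0.053 for Dusp2, from -0.00014 to 0.12 for Dusp5 in CALM-AF10, and from -0.21 to 0.0014 for Dusp1 in the Jak1 table, and from -0.024 to 0.029 for Dusp1, from -0.014 to 0.044 for Spred2, from -0.0051 to 0.021 for Dusp6 in MLL-AF10, and from -0.11 to 0.27 for Spry1, from -0.082 to 0.098 for Spred1 in MLL-AF9. With median centring in MLL-AF10, Dusp1 stood at -0.0086 and Dusp6 at -0.0059. The counts of called genes after Jak1 deletion stayed within 1.5 times under all alternatives. Leaving out 1 library at a time, CALM-AF10 gave 146 to 944 called genes (648 with all libraries) and 0 to 2 of the 10 genes (2). MLL-AF10 gave 1307 to 2396 called genes (2089) and 0 to 2 of the 9 genes (1), and MLL-AF9 gave 648 to 1036 (1281). With the replicate number as a block, 1048 genes were called in CALM-AF10, where Dusp4 was added (adjusted p = 0.00547, edgeR), and 781 in MLL-AF9. These numbers are not shown to pair libraries there. In MLL-AF10, where they were taken to pair libraries, the block called 3102 of all genes, against 2089 without it, and 3 of the 9 genes. There median centring called 2, and the stricter filter on low values left 3 genes to test and called 0. The causes of these changes were not tested. The counts for the other gene lists were recomputed under the same alternatives, which was decided after seeing the data: immediate early genes in MLL-AF9 stayed at 16 to 18 of 20 higher. Dusp4, a low gene, had the largest standard error of the 10 genes in CALM-AF10 (0.20), after Jak1 deletion (0.16) and in MLL-AF9 (0.25).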
